A study of Mus musculus with 6 samples.

Results

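The clustered protocadherins are cell-surface adhesion proteins of the cadherin superfamily, encoded in 3 neighbouring gene clusters (alpha, beta and gamma) on mouse chromosome 18. Genes were chosen by name: every entry of the count tables whose symbol marks it as an alpha, beta or gamma clustered protocadherin, kept if it had at least 10 reads in at least 2 of the 6 libraries. This gave 54 of 54134 entries: 12 alpha, 21 beta and 21 gamma genes. Another 3 of the 57 entries with such a symbol missed the minimum. The read count is the measured value in the rule, and it was applied without regard to group: 0 of the 54 members passed through 1 group alone, and all 54 also passed the separate filter on low counts and were among the 18705 genes tested.

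In neurons, each alpha or gamma gene has its own promoter and its own large first exon, which encodes the whole extracellular part, and that exon is spliced to a set of short constant exons shared by all genes of the cluster. Beta genes carry a single large exon and no constant part. Most variants (alternate alpha genes, beta genes, and gamma A and B types) are switched on in random combinations in single neurons through promoter choice that involves the looping protein CTCF, cohesin and DNA methylation, whereas the C-type variants at the ends of the alpha and gamma clusters follow other rules and are expressed more broadly. The proteins bind copies of themselves on opposing membranes, which lets a neuron tell its own branches from those of others and shapes dendrites, axon tiling and neuron survival.

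The data are bulk RNA-seq of prefrontal cortex from mice aged 6 to 8 weeks, with 2 libraries in each of 3 groups. Wild-type mice, labelled as a C57BL/6 x C3H cross, received vehicle. Mice labelled Shank3 +/ΔC, which carry 1 allele of the synaptic scaffold gene Shank3 that lacks the C-terminal part, received either vehicle or GSK-LSD1, an inhibitor of the histone demethylase LSD1 (gene Kdm1a). The labels call the libraries of a group biological duplicates, and the design text counts separate mice. Both mutant groups are heterozygous for the same Shank3 allele. No strain background of the mutants, sex of the mice, or dose and timing of the inhibitor was given in the sources used here. Wild-type mice given the inhibitor were not analysed here. The study asked whether targeting LSD1 acts on deficits in mouse models of autism, and its groups allow 3 comparisons: mutant with wild type under vehicle, inhibitor with vehicle in mutants, and inhibitor-treated mutants with wild type.

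The libraries held 14133834 to 28646960 counted reads, of which 8997 to 21678 (0.0590% to 0.0788%) fell on the 54 members. A single member had 6 to 4739 reads in a library, with a median of 153. Levels are given as CPM, the field's usual read count scaled to the sequencing depth of each library (here with edgeR's TMM factors), and as mean ± SD over 2 libraries, and 3 reads in a library correspond to 0.105 to 0.212 CPM (this covers counting error only). Log2 fold changes are given ± an approximate standard error, with p-values from edgeR's quasi-likelihood test adjusted over all 18705 genes by Benjamini-Hochberg, a threshold of 0.05, and n = 2 libraries per group throughout. Shank3 itself stood at 153 and 160 CPM in wild type, 146 and 174 in vehicle-treated mutants and 159 and 148 in inhibitor-treated mutants, so the count over the whole gene did not separate the genotypes. A count over all exons includes those outside the deleted part and checks the labels only to that extent. Of the marker lists, only 1 gene of 4 for serotonergic neurons was at 0 reads in all libraries, and excitatory neuron markers summed to 4090 to 5419 CPM. Oligodendrocyte markers summed to 2460 and 2708 CPM in wild type and to 6171 and 6221 in vehicle-treated mutants, and the inhibitor-treated mutants split into 2501 and 5865.

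Shared exons limit which protocadherin reads can be assigned to 1 gene. In the GENCODE M21 annotation of GRCm38, the alpha genes lie between 36930184 and 37187661 on chromosome 18, the beta members between 37294812 and 37524479, and the gamma genes between 37661793 and 37841873, all on the plus strand. The constant exons of the alpha cluster start with one of 59 bp and one of 89 bp and appear in 14 annotated clustered protocadherin genes. Those of the gamma cluster appear in 22 such genes, and the gene models Gm42416, Gm37013 and Gm37388 also carry at least part of them. A counter that drops reads over exons of more than 1 gene leaves an alpha or gamma gene only its own first exon. Exonic length that overlaps no exon of another gene on either strand, called countable length here, was 3028 of 5888 bp for Pcdhac2 and 4606 of 7627 bp for Pcdhgc5, while most beta genes kept their whole length.

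Pcdhgc5 is a special case, because 1 of its annotated transcripts retains an intron. Its first block therefore runs from 37819513 to 37825079, up to and through the first constant exon, and unspliced transcripts of other gamma genes would cross that stretch. How many of the reads counted for Pcdhgc5 came from it was not tested.

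**Figure D1:**
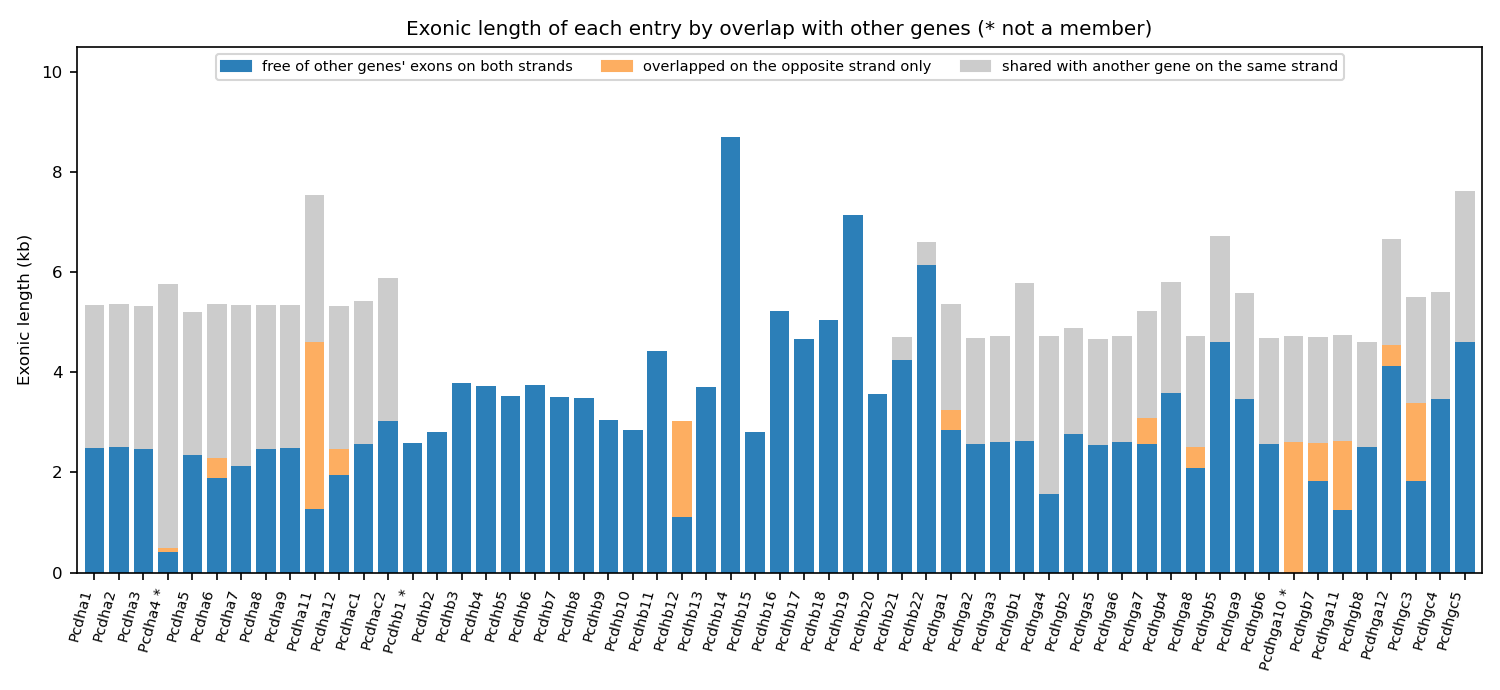
Exonic length in kb (vertical axis) of each of the 57 clustered protocadherin entries in chromosomal order, split into length free of other genes' exons, length overlapped only on the opposite strand, and length shared with another gene on the same strand; an asterisk marks the 3 entries that are not members. Alpha and gamma genes share a large part of their length (only 3028 of 5888 bp of Pcdhac2 are free), and Pcdhga10 has no free length.

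The 3 entries outside the rule were Pcdha4 (0, 4, 6, 3, 2 and 0 reads in wild-type libraries 1 and 2, vehicle mutant libraries 1 and 2 and inhibitor libraries 1 and 2), Pcdhb1 (4, 0, 8, 8, 24 and 6 reads) and Pcdhga10 (0 reads in every library). Just inside were Pcdha8 (12, 37, 15, 26, 6 and 16 reads), Pcdha1 (32, 61, 30, 27, 22 and 18 reads) and Pcdhb2 (37, 107, 79, 72, 61 and 32 reads). For Pcdha4 only 404 of 5768 bp are countable, since the exon of a read-through gene model, Gm42416, covers most of its first exon. Pcdhga10 has 2613 bp free on its own strand and 0 bp free on both, because an exon of the antisense gene Gm26672 (4 to 19 reads) lies across it. Over all protein-coding genes with at least 1000 bp free on their own strand and none free on both, 15 of 17 (88.2%) had 0 reads in all libraries, against 2949 of 19383 (15.2%) with at least 1000 bp free on both. The libraries are strand-specific, but these values are what counting without regard to strand would give, so a low count for such genes is not a measure of low expression. Members with part of their length under an antisense exon were Pcdha6, Pcdha11, Pcdha12, Pcdhb12, Pcdhga1, Pcdhga7, Pcdhga8, Pcdhga11, Pcdhga12, Pcdhgb7 and Pcdhgc3. The symbol Pcdha11 belongs to more than 1 locus in this annotation, and which one the single Pcdha11 entry counts is uncertain. Near-identical stretches can also move reads between members: 23.4% of the 50-base words in the first exon of Pcdha7 occur in another member's, most often that of Pcdha8, and 16.9% of those of Pcdhgb1, most often shared with Pcdhgb2.

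A pair of C-type genes stood highest in the alpha and gamma clusters. Pcdhgc5, a gamma C-type whose protein binds GABA-A receptors, was the most abundant gamma member per countable kb at 31.5 CPM per kb over all libraries, and Pcdhac2, the alpha C-type needed for tiling of serotonergic axons, the most abundant alpha member at 25.3 CPM per kb. The median member stood at 2.79 CPM per kb, and the members of the beta cluster ranged only from 0.771 (Pcdhb6) to 4.602 (Pcdhb9). Next in the gamma cluster came Pcdhgc3, the C-type tied to dendrite growth through Axin1, at 11.4 CPM per kb, and then Pcdhga3 at 6.48. The lowest gamma member was Pcdhgb8 (1.24 CPM per kb), which GENCODE M21 annotates as a polymorphic pseudogene and not as protein-coding. The lowest alpha members were Pcdha1 (0.613) and Pcdha8 (0.361). C-type genes took 56.3% to 61.2% of the alpha reads and 50.1% to 59.1% of the gamma reads of a library, and their share was highest in inhibitor library 1 in both clusters.

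**Figure D2:**
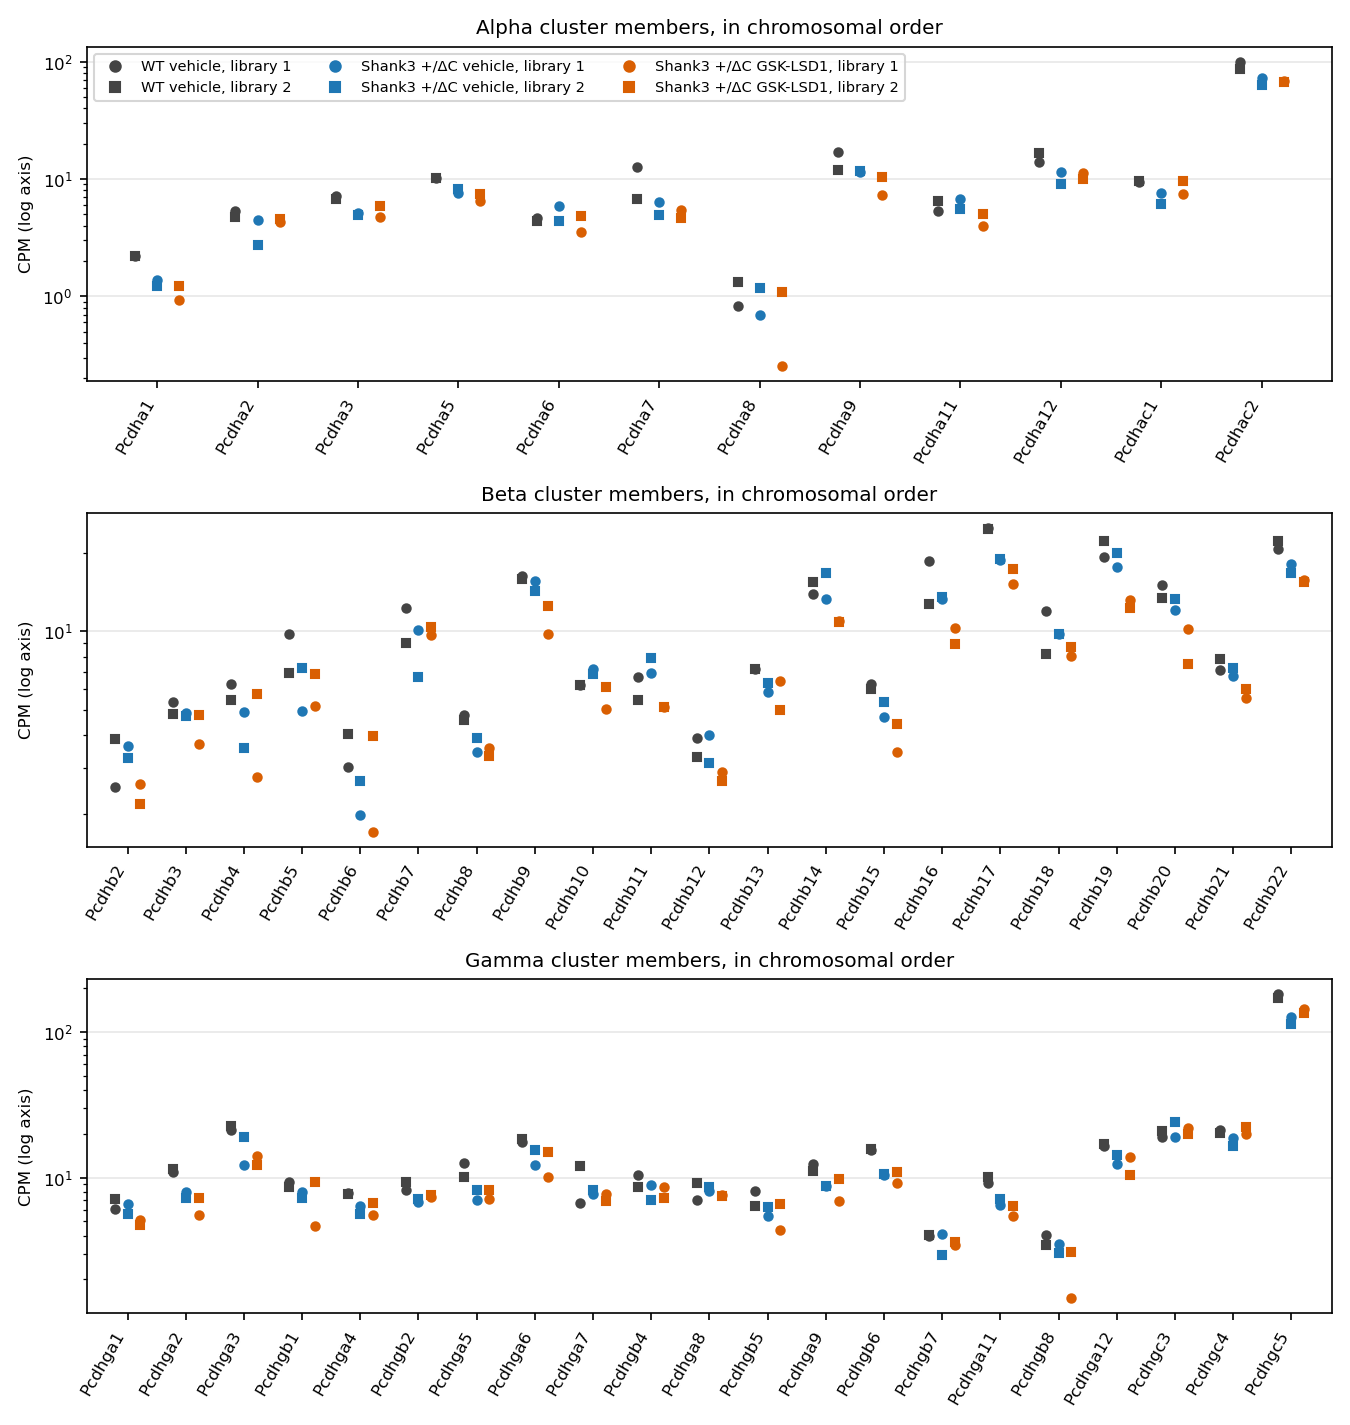
CPM of every member (log axis) in chromosomal order, with 1 point per library, circles for library 1 and squares for library 2 of each group. Pcdhac2 and Pcdhgc5 stand above the other members of their clusters, and for many members the wild-type points lie above those of both mutant groups.

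Summed over all 54 members, the level was 819 and 783 CPM in the wild-type libraries, 639 and 621 in the vehicle-treated mutants, and 589 and 613 in the inhibitor-treated mutants. The wild-type libraries were thus the 2 highest, and no library of either mutant group reached them. The mean of the vehicle-treated mutants was 78.6% and that of the inhibitor-treated mutants 74.99% of the wild-type mean. With 2 libraries against 2, an exact two-sided permutation test of such a sum cannot give a p below 0.333, so the sums are given as values only. In bulk tissue, fewer cells of a type and less RNA per cell cannot be told apart.

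Alpha members summed to 188 and 168 CPM in wild type, 142 and 123 in vehicle-treated mutants and 125 and 132 in inhibitor-treated mutants. Beta members summed to 222 and 209, then 188 and 192, then 151 and 160 CPM, a series in which no group overlapped another. Gamma members summed to 409 and 406, then 309 and 306, then 313 and 321 CPM, so that both mutant groups lay together below wild type. Beta genes accordingly made up 26.7% and 27.1% of all member reads in wild type, 29.4% and 30.9% in vehicle-treated mutants and 25.6% and 26.1% in inhibitor-treated mutants, with no overlap between groups. Whether the clusters differ in their response was not tested beyond these values.

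**Figure D3:**
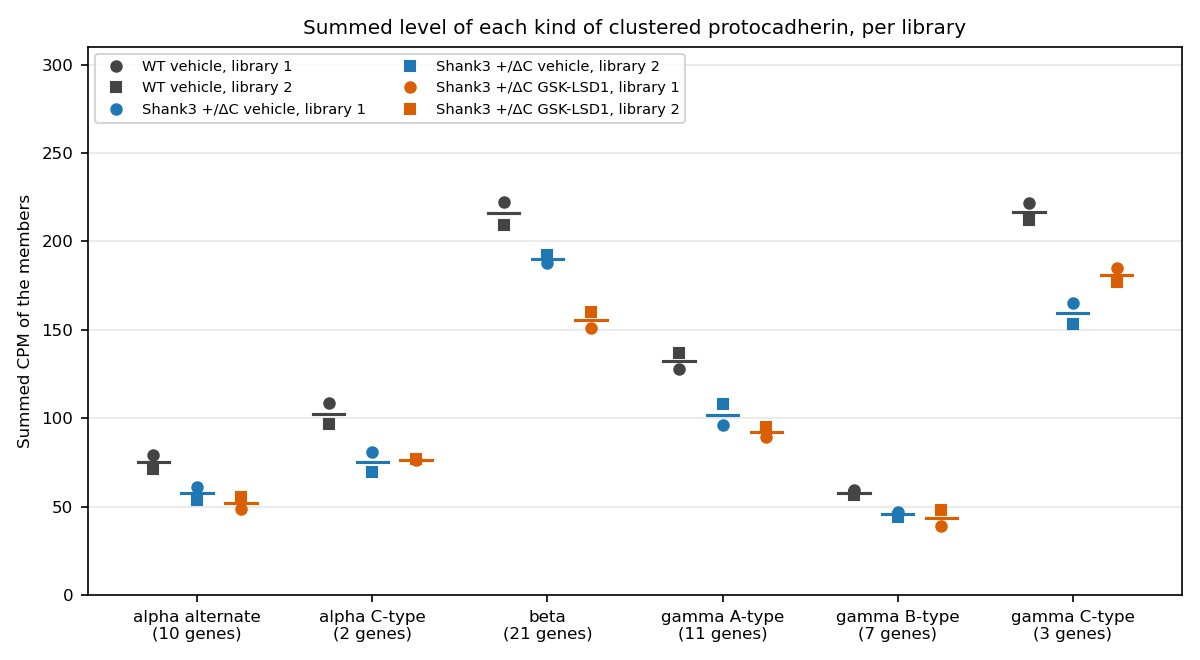
Summed CPM (vertical axis, from 0) of the members of each kind, with 1 point per library and a bar at the group mean. Each kind is highest in wild type, beta genes step down again with the inhibitor (216, 190 and 156 CPM in the group means), and gamma C-types lie higher with inhibitor than with vehicle (181 against 159 CPM).

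In vehicle-treated mutants compared with wild type, protocadherins of all 3 clusters lay lower, but a single one passed the test. Pcdhgc5 was counted at 181 and 171 CPM in wild type and at 128 and 113 CPM in vehicle-treated mutants, with no overlap. It fell from 176 ± 7.23 to 120.2 ± 10.6 CPM, 31.8% lower and a log2 fold change of -0.55 ± 0.11 (edgeR adjusted p = 0.0235). In all 1 of 54 members was called, against 1.27% of all genes tested (0.994% lower, 0.278% higher). Log2 fold changes were below 0 for 46 of the 54 members, against 47.7% of all genes, and their median was -0.30 where the median of all genes was 0.02. For 32 members both mutant libraries lay below both wild-type libraries, and for 2 they lay above, while over all genes these shares were 23.1% and 23.1%. At an unadjusted p under 0.05 by the same test there were 13 lower and 0 higher members, against 8.24% and 5.81% of all genes.

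By cluster, the median log2 fold change was -0.45 for alpha, -0.16 for beta and -0.33 for gamma members, and 10 of 12, 17 of 21 and 19 of 21 were below 0. The beta median was -0.25 without wild-type library 2 and -0.08 with scaling by library size alone. In the alpha cluster Pcdhac2 was counted at 99.1 and 87.0 CPM in wild type and 73.2 and 63.4 CPM in vehicle-treated mutants. Its groups did not overlap, and at -0.44 ± 0.11 it lay just outside the threshold (edgeR adjusted p = 0.0559). The other alpha C-type, Pcdhac1, stood at 9.51 and 9.58 CPM against 7.54 and 6.12 (-0.48 ± 0.20, edgeR adjusted p = 0.281). Among the alternate alpha genes, each a neuron-specific variant with its own recognition surface, Pcdha12 stood at 14.1 and 16.8 against 11.5 and 9.12 CPM (-0.59 ± 0.18, edgeR adjusted p = 0.119). Pcdha7 gave the next smallest p and a fold change of -0.75 ± 0.27, but its wild-type libraries were 12.6 and 6.76 CPM, farther apart than the second is from the mutant values of 6.34 and 4.94. Pcdha8, the lowest alpha member, overlapped (0.821 and 1.34 against 0.689 and 1.18 CPM, -0.24 ± 0.63). Pcdha6 and Pcdha11 were the alpha members with values above 0, at 0.18 ± 0.25 and 0.04 ± 0.23.

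In the beta cluster 9 of 21 members lay lower with no overlap and 2 higher, against 23.1% and 23.1% of all genes. Pcdhb17 was counted at 24.8 and 24.6 CPM in wild type and 18.8 and 18.9 CPM in vehicle-treated mutants. The spread within each group was far smaller than the gap, and the model, which shares its spread across genes, gave -0.39 ± 0.14 (edgeR adjusted p = 0.195). Pcdhb22 stood at 20.7 and 22.3 against 18.2 and 16.8 CPM (-0.30 ± 0.14, edgeR adjusted p = 0.351). Pcdhb6 (3.01 and 4.05 against 1.98 and 2.68 CPM, -0.62 ± 0.37) and Pcdhb5 (9.79 and 6.94 against 4.96 and 7.21 CPM, -0.44 ± 0.25) came next by p, and Pcdhb5 overlapped. Pcdhb9, the beta member with the highest level per kb, differed little at 16.4 and 15.8 against 15.6 and 14.3 CPM (-0.10 ± 0.17). Its log2 interval reaches across 0, and a p above the threshold does not show that the groups were alike.

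In the gamma cluster all 7 B-type genes and 10 of 11 A-type genes were below 0. Pcdhgb6 was counted at 15.4 and 15.8 CPM in wild type and 10.4 and 10.7 CPM in vehicle-treated mutants (-0.57 ± 0.17, edgeR adjusted p = 0.107). Pcdhga5 stood at 12.7 and 10.2 against 7.03 and 8.16 CPM (-0.58 ± 0.20), and Pcdhga2 at 10.9 and 11.5 against 7.95 and 7.26 CPM (-0.56 ± 0.20), also with no overlap and with edgeR adjusted p-values of 0.173 and 0.183. The 3 gamma C-types parted ways. Beside Pcdhgc5, Pcdhgc4, the variant required for survival of cortical interneurons, stood at 21.2 and 20.3 against 18.8 and 16.5 CPM (-0.23 ± 0.14), whereas Pcdhgc3 stood at 18.9 and 20.8 against 19.0 and 24.1 CPM (0.12 ± 0.15, edgeR adjusted p = 0.809). Pcdhgc3 thus overlapped between groups, and its sign turned to -0.06 without vehicle mutant library 2.

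With 1 library left out, Pcdhgc5 kept a negative log2 fold change. It was -0.52 without wild-type library 1, -0.60 without wild-type library 2, -0.65 without vehicle mutant library 1 and -0.46 without vehicle mutant library 2. Such a fit leaves 1 library in a group, so whether the call depends on any single library could not be told from it. Over the 6 fits with 1 library left out, 43 to 48 members were below 0. Oligodendrocyte markers were higher in this comparison (all 12, none overlapping, 0 called, median 0.96), as were astrocyte markers (3 of 12 called higher, median 0.37). Excitatory neuron markers lay lower (8 of 10 below 0, 1 called, median -0.25, summed level 5390 to 5419 against 4510 to 4655 CPM), and inhibitory neuron markers had a median of 0.12. Markers of oligodendrocyte precursors (8 of 8 above 0, 1 called), microglia (9 of 10, 1 called) and endothelial cells (6 of 8, 1 called) were on the higher side. The summed meningeal fibroblast markers came to 306% of wild type (0 called), from wild-type libraries of 136 and 53.9 CPM. Most of that sum was Col1a1 (38.9 ± 37.4 CPM in wild type, 165 ± 45.2 in vehicle-treated mutants) and Col1a2 (42.3 ± 21.8 and 115 ± 34.6). Of the 5 tested, 3 were above 0 and 2 below, among the latter Slc6a13 (-1.03 ± 0.32). The part of these markers in the lower protocadherin levels was not tested.

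With GSK-LSD1 in mutants, compared with vehicle, 0 of 54 members passed the test, where 0.107% of all genes did (0.00535% lower, 0.102% higher). DESeq2 and limma-voom also called 0. At an unadjusted p under 0.05 by edgeR there were 6 lower members and 0 higher, against 2.52% and 3.18% of all genes (5.70% in either direction). Leaving out 1 library moved this to 3 lower (without vehicle mutant library 2), 5 lower and 2 higher (without vehicle mutant library 1), 4 lower (without inhibitor library 1) or 9 lower (without inhibitor library 2). With all libraries the 6 were all beta genes: Pcdhb9, Pcdhb11, Pcdhb14, Pcdhb16, Pcdhb19 and Pcdhb20. Beta members had a median log2 fold change of -0.28, and 19 of 21 were below 0, of which 14 did not overlap between groups. Alpha members had a median of -0.17, which was -0.02 without vehicle mutant library 1 and -0.06 without inhibitor library 1, and 3 were lower without overlap. Gamma members had a median of -0.11, with 5 lower and 3 higher without overlap (Pcdhgc5, Pcdhgc4 and Pcdhgb2). Over all genes 16.6% were lower and 17.0% higher without overlap.

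Pcdhb19 gave the smallest p of all members. It was counted at 17.7 and 20.0 CPM in vehicle-treated and 13.2 and 12.3 CPM in inhibitor-treated mutants, a log2 fold change of -0.56 ± 0.15 that did not pass (edgeR adjusted p = 0.376). Pcdhb20 stood at 12.04 and 13.3 against 10.2 and 7.49 CPM (-0.51 ± 0.19), and Pcdhb14 at 13.3 and 16.7 against 11.0 and 10.9 CPM (-0.46 ± 0.17). For Pcdhb9, the groups were 15.6 and 14.3 against 9.79 and 12.5 CPM (-0.44 ± 0.17, edgeR adjusted p = 0.782). In each of these 4 beta genes both inhibitor libraries lay below both vehicle libraries, and for Pcdhb20 and Pcdhb9 the inhibitor libraries themselves differed by more than 2 CPM. Wild-type levels of the same genes (19.3 and 22.3 CPM for Pcdhb19, 14.0 and 15.5 for Pcdhb14) lay close to or above those of vehicle-treated mutants, so the inhibitor libraries were the lowest of the 6.

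In the alpha cluster Pcdha11 (6.80 and 5.53 against 3.99 and 5.04 CPM, -0.46 ± 0.24) and Pcdha9 (11.4 and 11.6 against 7.38 and 10.4 CPM, -0.39 ± 0.21) had the smallest p and did not overlap, whereas Pcdha6 overlapped (5.84 and 4.399 against 3.52 and 4.84 CPM, -0.31 ± 0.26). Among gamma A-types Pcdhga1 stood at 6.62 and 5.62 against 5.13 and 4.70 CPM (-0.31 ± 0.22). None of these 4 passed.

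Some gamma C-types had the opposite sign. Pcdhgc5 stood at 128 and 113 CPM with vehicle and 143 and 135 CPM with inhibitor (0.21 ± 0.11, edgeR adjusted p = 0.909), between the vehicle-treated mutants and the wild-type libraries. The same vehicle-treated libraries enter the comparison with wild type, so its opposite signs in these comparisons are not independent of each other. Pcdhgc4 stood at 18.8 and 16.5 against 19.8 and 22.2 CPM (0.25 ± 0.14, edgeR adjusted p = 0.955), which is the wild-type range of 20.3 to 21.2 CPM or near it. Both were higher without overlap, and neither passed. Pcdhac2 did not move with the inhibitor in either direction by more than its error (73.2 and 63.4 against 68.8 and 67.4 CPM, -0.00 ± 0.11), and Pcdhac1 overlapped (7.54 and 6.12 against 7.50 and 9.54 CPM, 0.31 ± 0.21). Pcdhgc3 overlapped as well (19.0 and 24.1 against 21.9 and 19.9 CPM, -0.04 ± 0.15). The gamma sum was 103.1% of the vehicle mean with inhibitor while the gamma median was -0.11, and Pcdhgc5 alone carried 36.8% to 45.7% of the gamma reads.

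The values of this comparison moved when 1 library was left out. Without inhibitor library 1 the gamma median was 0.03 and the beta median -0.20. In that fit 35 members were below 0, against 42 with all libraries. Without inhibitor library 2 the beta median was -0.37, and without vehicle mutant library 1 the alpha median was -0.02. Each of these fits leaves 1 library in a group, so none tells how the comparison depends on a single library. Single members differed between inhibitor libraries 1 and 2 in both directions. Examples picked after their values were seen are Pcdha8 (0.254 against 1.09 CPM), Pcdhb6 (1.70 against 3.95 CPM), Pcdhb4 (2.76 against 5.72 CPM) and Pcdhgb8 (1.48 against 3.07 CPM). Higher in library 1 were, for example, Pcdhb20 (10.2 against 7.49 CPM) and Pcdhb16 (10.3 against 8.93 CPM). Oligodendrocyte markers summed to 2501 CPM in library 1, near wild type, and to 5865 CPM in library 2. Meningeal fibroblast markers summed to 94.0 and 50.9 CPM with inhibitor against 232 and 349 with vehicle (24.9% of the vehicle mean). Most of the vehicle sum was Col1a1 (2899 and 4347 reads, 524 and 190 with inhibitor) and Col1a2 (1979 and 3084 reads, 1149 and 412 with inhibitor). Of the 5 markers tested, 3 were below 0 and 2 above, with a median of -0.13. The part of the oligodendrocyte and meningeal fibroblast lists in these values was not tested.

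**Figure D4:**
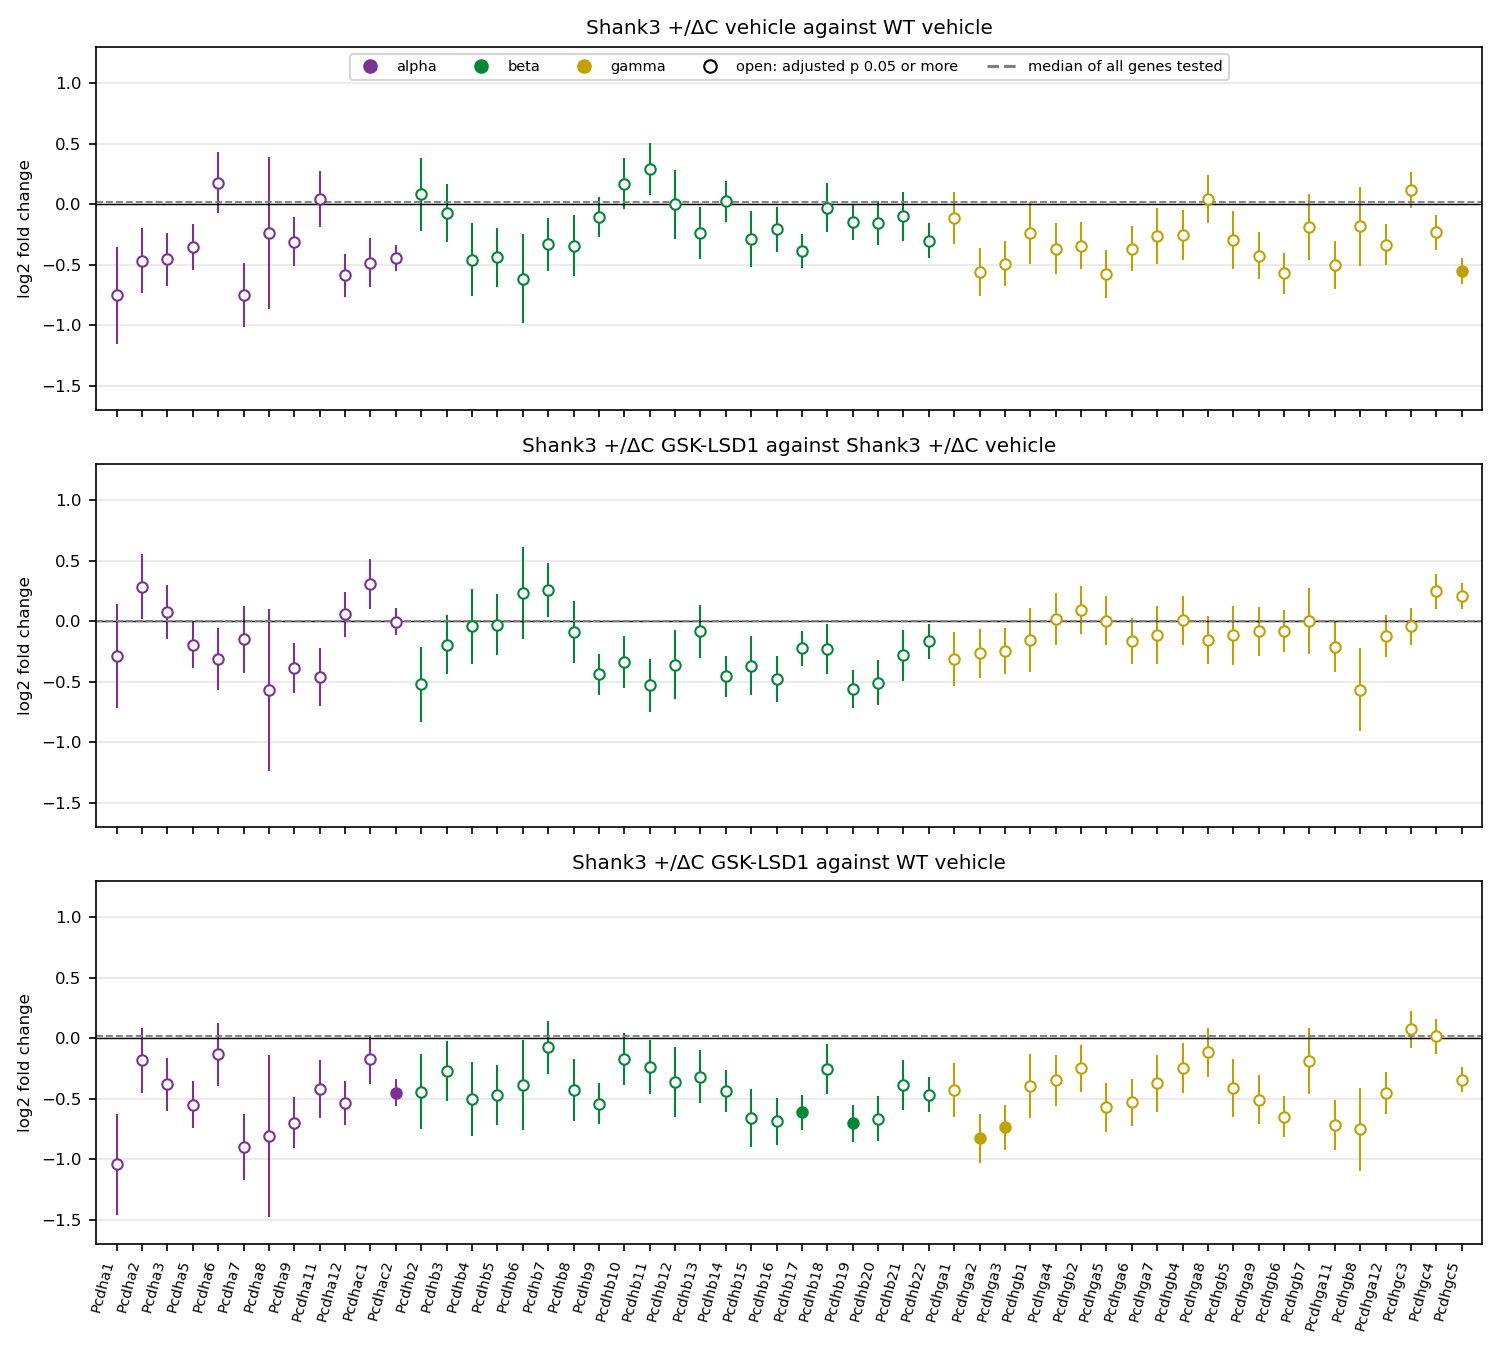
Log2 fold change of each member (vertical axis) with its approximate standard error as a bar, in chromosomal order, for the 3 comparisons; filled points passed an adjusted p of 0.05 and the dashed line is the median of all genes tested. Most points lie below the line in the upper and lower panels, and in the middle panel none is filled.

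Set against wild type, the inhibitor-treated mutants had more protocadherins past the threshold: 5 of 54, all lower, against 2.62% of all genes (1.99% lower, 0.636% higher). This comparison and the first share the wild-type libraries, so they are not independent of each other. The 5 were Pcdhac2 in the alpha cluster, Pcdhb17 and Pcdhb19 in the beta cluster and Pcdhga2 and Pcdhga3 in the gamma cluster. In all, 52 of 54 members were below 0 (47.4% of all genes), and the median was -0.43 over the members and 0.02 over all genes. Lower without overlap were 40 members and higher without overlap 0, where the shares of all genes were 22.4% and 23.5%. At an unadjusted p under 0.05 the same test gave 24 lower and 0 higher members, against 8.62% and 7.11% of all genes, and 14 lower without inhibitor library 1.

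Pcdhb19 fell from 19.3 and 22.3 CPM in wild type to 13.2 and 12.3 CPM in inhibitor-treated mutants, a log2 fold change of -0.70 ± 0.15 (edgeR adjusted p = 0.0212). Pcdhb17 fell from 24.8 and 24.6 to 15.1 and 17.3 CPM (-0.61 ± 0.14, edgeR adjusted p = 0.0270), with the vehicle-treated mutants between them at 18.8 and 18.9 CPM. Both are beta genes from the distal end of the cluster, near the gamma genes: Pcdhb17 lies at chr18:37484795-37489454 and Pcdhb19 at chr18:37496991-37504128 (GRCm38), and no exon of either overlaps another gene.

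Among gamma A-types, Pcdhga2 fell from 10.9 and 11.5 to 5.55 and 7.22 CPM (-0.83 ± 0.20, edgeR adjusted p = 0.0357). Pcdhga3, the A-type with the highest level per kb, fell from 21.1 and 22.7 to 14.0 and 12.2 CPM (-0.74 ± 0.19, edgeR adjusted p = 0.0451), and its vehicle mutant libraries, at 12.2 and 19.0 CPM, spanned most of that range. Pcdhac2 fell from 99.1 and 87.0 to 68.8 and 67.4 CPM (-0.45 ± 0.11, edgeR adjusted p = 0.0383), so that both mutant groups had about the same level of this C-type. In GRCm38 these genes span chr18:37668953-37841870 (Pcdhga2), chr18:37674307-37841873 (Pcdhga3) and chr18:37143503-37187657 (Pcdhac2), and their countable part is the first exon at the left end. For each of the 5 genes both inhibitor libraries lay below both wild-type libraries.

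Several members lay just outside the threshold in this comparison. Pcdhgb6 stood at 15.4 and 15.8 against 9.16 and 10.9 CPM (-0.65 ± 0.17, edgeR adjusted p = 0.0523), Pcdhb20 at 14.99 and 13.4 against 10.2 and 7.49 CPM (-0.67 ± 0.19, edgeR adjusted p = 0.0665), and Pcdhb16 at 18.6 and 12.7 against 10.3 and 8.93 CPM (-0.69 ± 0.19, edgeR adjusted p = 0.0667). Pcdhga11 stood at 9.17 and 10.1 against 5.43 and 6.40 CPM (-0.71 ± 0.20, edgeR adjusted p = 0.0727), and Pcdha9 at 17.0 and 11.9 against 7.38 and 10.4 CPM (-0.70 ± 0.21, edgeR adjusted p = 0.0916). Pcdha7 (12.6 and 6.76 against 5.43 and 4.70 CPM, -0.90 ± 0.27) and Pcdha12 (14.1 and 16.8 against 11.3 and 10.1 CPM, -0.53 ± 0.18) had edgeR adjusted p-values of 0.1001 and 0.141. None of these 7 overlapped between groups, although the 2 wild-type values of Pcdhb16 and of Pcdha9 lay about as far apart as the group means, and those of Pcdha7 farther apart than its group means. Pcdhgc5, the call of the first comparison, stood at 181 and 171 against 143 and 135 CPM and did not pass here (-0.34 ± 0.11, edgeR adjusted p = 0.1001).

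Of the remaining C-types, Pcdhgc3 and Pcdhgc4 overlapped between groups. Pcdhgc3 was counted at 18.9 and 20.8 CPM in wild type and 21.9 and 19.9 with inhibitor (0.08 ± 0.15), and Pcdhgc4 at 21.2 and 20.3 against 19.8 and 22.2 CPM (0.02 ± 0.14). These were the 2 members with values above 0, but Pcdhgc3 came to -0.01 without inhibitor library 1, and Pcdhgc4 to -0.02 without wild-type library 2 and -0.06 without inhibitor library 2. Pcdhac1 overlapped too (9.51 and 9.58 against 7.50 and 9.54 CPM, -0.17 ± 0.20). This was not particular to C-types: 16 of 21 beta and 9 of 11 gamma A genes were lower without overlap, and the rest overlapped. The values nearest to 0 in these kinds were -0.07 and -0.11. By kind, medians were -0.54 for alternate alpha, -0.43 for beta, -0.51 for gamma A, -0.39 for gamma B and 0.02 for gamma C genes. The gamma C median covers only 3 genes, among them Pcdhgc5 at -0.34, and their summed level was 83.4% of the wild-type mean. Of the 3380 bp of Pcdhgc3 free on its own strand only 1821 bp are free on both, so part of its reads may be missing from its count.

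With 1 library left out, the 5 called members kept negative log2 fold changes. They ran from -0.80 to -0.59 for Pcdhb19, -0.71 to -0.52 for Pcdhb17 and -1.01 to -0.64 for Pcdhga2. For Pcdhga3 the range was -0.85 to -0.64, and for Pcdhac2 -0.54 to -0.36. Each of these 6 fits leaves 1 library in a group, so whether a call depends on any single library could not be told. The number below 0 was 50 to 53 of 54 in the same fits. Astrocyte markers were higher here as well (4 of 12 called, median 0.46), and oligodendrocyte markers had a median of 0.58 with 0 called. Excitatory neuron markers had a median of -0.22 with 2 of 10 called lower. Of 4 choroid plexus markers tested, 2 were called higher (median 1.78), in a list that summed to only 4.65 to 19.2 CPM in a library. Their part in the result was not tested.

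Fold changes were also set against position and base composition. Across the members of a cluster, Spearman's rho between chromosomal order and log2 fold change ran from -0.35 to 0.35 over the 3 clusters and 3 comparisons, and that between GC content and log2 fold change from -0.32 to 0.47. These are descriptions over 12 or 21 genes that share libraries, and GC content itself differs by cluster, from 46.5% to 49.8% over alpha, 39.1% to 49.0% over beta and 51.0% to 55.4% over gamma entries.

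Genes known to act on protocadherin promoters or with the proteins were examined beside them. Of 27 regulators of promoter choice (CTCF and cohesin, DNA methylation and silencing factors), 26 were tested and 0 passed in any comparison. At an unadjusted p under 0.05 there were 2 lower and 1 higher in vehicle-treated mutants against wild type, 2 and 0 for inhibitor against vehicle, and 3 and 1 for inhibitor-treated mutants against wild type. Over all genes the shares in either direction were 14.0%, 5.70% and 15.7%, and the regulators' counts were at or near them. Rest, the neuronal gene silencer that recruits LSD1 through Rcor1, stood at 5.77 ± 1.09, 8.74 ± 1.31 and 8.96 ± 1.40 CPM in wild type, vehicle-treated and inhibitor-treated mutants (edgeR adjusted p = 0.216 and 0.168 against wild type). Kdm1a, the target of the inhibitor, was counted at 93.1 and 102, 97.2 and 86.3, and 95.3 and 89.9 CPM, which overlapped between all groups.

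Of 21 signalling, processing and adhesion partners, 2 fell in each comparison with wild type and 0 changed with the inhibitor, where 1.27%, 2.62% and 0.107% of all genes did. Both, Wasf1 and Cyfip2, encode parts of the WAVE complex, which links clustered protocadherins to the actin cytoskeleton, but the 5 other genes of that complex on the list did not pass: in vehicle-treated mutants against wild type Cyfip1 was at 0.11, Abi1 at 0.08, Nckap1 at -0.02, Brk1 at -0.06 and Abi2 at -0.18. Wasf1 fell from 200.4 ± 7.35 CPM in wild type to 132 ± 17.2 in vehicle-treated mutants (-0.60 ± 0.11, edgeR adjusted p = 0.0221) and to 119 ± 1.80 in inhibitor-treated mutants (-0.75 ± 0.11, edgeR adjusted p = 0.00458). Cyfip2 fell from 1455 ± 102 to 1047 ± 50.5 CPM (-0.47 ± 0.11, edgeR adjusted p = 0.0493) and 1029 ± 14.9 CPM (-0.50 ± 0.11, edgeR adjusted p = 0.0258). The median of this list was -0.12, -0.01 and -0.11 in the 3 comparisons. The list was chosen with earlier results of these data known, so its counts beside the shares of all genes do not measure an excess.

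The non-clustered protocadherins are related adhesion genes that each stand alone, outside the 3 clusters. Of 12 tested, 2 fell in vehicle-treated mutants, 0 changed with the inhibitor and 3 fell in inhibitor-treated mutants (1.27%, 0.107% and 2.62% of all genes), with medians of -0.26, 0.08 and -0.15. This list too was chosen with earlier results of these data known, so these counts do not measure an excess. Pcdh19, an X-linked gene mutated in a form of epilepsy, fell from 190.2 ± 22.8 CPM in wild type to 115 ± 2.40 in vehicle-treated mutants (-0.73 ± 0.11, edgeR adjusted p = 0.00890) and stood at 132 ± 0.745 with inhibitor (-0.52 ± 0.11 against wild type, edgeR adjusted p = 0.0160). Pcdh1 fell from 383 ± 72.9 to 237 ± 5.61 CPM (-0.69 ± 0.12, edgeR adjusted p = 0.0178) and 263 ± 9.58 CPM (-0.54 ± 0.12, edgeR adjusted p = 0.0245). Pcdh10 fell from 629 ± 36.8 to 447 ± 63.0 CPM in inhibitor-treated mutants (-0.49 ± 0.12, edgeR adjusted p = 0.0322). Of the genes beside the clusters on chromosome 18 that are not protocadherins, 14 were tested and 0 passed in any comparison. In the 3 comparisons 6, 3 and 3 of the 14 were below 0, with medians of 0.03, 0.07 and 0.12, and at an unadjusted p under 0.05 there were 1 lower (Diaph1, -0.30 ± 0.11), 1 higher (Dnd1, 1.75 ± 0.72) and 0. Dnd1 was near the floor, with 3 and 9 reads in vehicle-treated and 19 and 16 reads in inhibitor-treated mutants, so its fold change rests on few reads.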

How the data were processed

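The 6 libraries are prefrontal cortex total RNA, depleted of ribosomal RNA and made into strand-specific libraries, per the labels' protocols. The authors deposited 1 table of raw counts by gene symbol for each library, made per the submitters' processing notes with cutadapt, TopHat2, SAMtools and featureCounts on mm10 (GRCm38), with edgeR also named. No tool version, annotation release or strand setting was given in the sources used here. Both libraries of a group differed beyond counting noise in every group (chi-square over its degrees of freedom, 9.41 to 12.6).

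Counts were analysed in R 4.3.3 with edgeR 4.0.16: filterByExpr, TMM scaling and a robust quasi-likelihood fit of 3 groups to all 6 libraries (3 residual degrees of freedom, biological coefficient of variation 11.5%), two-sided, adjusted over 18705 genes. Approximate standard errors were derived from each log2 fold change and its F statistic (size over root F). The procedure was tested on simulated data. DESeq2 1.42.0, limma 3.58.1 (voom), other scalings and filters, a replicate block, a length and GC correction and leaving out each library were alternatives. Overlap with other genes comes from GENCODE M21, not necessarily the authors' annotation.

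Members and gene lists were chosen with earlier results of these data known. Named in a comparison were members past the threshold, the 4 with the smallest p in each cluster, the C-types, the most and least abundant of each cluster per exonic kb and those nearest the read minimum, and of the other lists genes past the threshold or else up to 3 with the smallest p. Pcdhb4, Pcdhb11, Pcdhb16, Pcdha6, Pcdha11, Pcdhb20, Pcdhgb2, other WAVE complex genes and genes named for overlap were added where a statement singled them out after their values were seen. Values of some single genes of the other lists are not reported here.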

Additional observations from a re-analysis of the deposited data

How the results depend on the processing

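Against 1 member called in vehicle-treated mutants compared with wild type, library size scaling, a non-robust fit and the length and GC correction gave 0, DESeq2, only the 4 libraries compared and an adjusted p under 0.10 gave 2, no filter on low counts gave 4, and leaving out 1 library gave 0 to 3. Against 5 called in inhibitor-treated mutants compared with wild type, library size scaling gave 0, 3 came from each of upper quartile scaling, a non-robust fit, limma-voom, the length and GC correction and the 4 compared libraries alone, DESeq2 gave 7 and RLE scaling 6, an adjusted p under 0.10 gave 10, no filter 11, and leaving out 1 library gave 0 to 5. The comparison of inhibitor with vehicle gave 0 in every setting run. The cause of these shifts was not tested. Fits with 1 library left out leave 1 library in a group, so their counts do not tell how a call depends on that library. Over all genes the calls for vehicle-treated mutants against wild type also moved, from 186 lower and 52 higher to 10 and 1 in the non-robust fit, 20 and 15 with library size scaling, and 470 and 124 with DESeq2.

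The labels do not say whether same-numbered libraries belong together. Deviations of same-numbered libraries correlated at -0.08, -0.07 and 0.16 across genes, which cannot tell whether they were paired. The fit with the replicate block called 1, 0 and 4 members in the 3 comparisons.

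Of the members called, Pcdhgc5 kept its call in 11 of 17 other settings, Pcdhac2 in 8, Pcdhb17 in 12, Pcdhb19 in 13 and Pcdhga3 in 7 of 17, and Pcdhga2 in 11 of 16. Pcdhga2 had no adjusted p in DESeq2. All 6 kept a negative sign in these settings. Some signs turned: with 1 library left out the range was -0.67 to 0.18 for Pcdha8 and -0.063 to 0.27 for Pcdhgc3 in vehicle-treated mutants against wild type. For inhibitor against vehicle it was -0.11 to 0.11 for Pcdhac2 (0.0051 with library size scaling), -1.85 to 0.22 for Pcdha8, -0.45 to 0.76 for Pcdhb6, -0.20 to 0.14 for Pcdhgc3, and -0.14 to 0.034 for the gamma median. For inhibitor-treated mutants against wild type it was -1.07 to 0.14 for Pcdhb6, -0.0070 to 0.15 for Pcdhgc3 and -0.064 to 0.093 for Pcdhgc4. The alpha and beta medians stayed below 0 in all settings run.

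Depth limits single members: the median was 153 reads per member and library, and Pcdha8 had 6 to 37.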
